A study of Danio rerio with 16 samples.

Results

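Most of the genes described here encode proteins that hepatocytes release into the blood: clotting factors and the enzyme precursor that dissolves clots, protease inhibitors, complement components, and carriers of iron, heme, lipid, retinol and thyroid hormone. They were taken as a list of 48 symbols of zebrafish genes, with no measured value in the rule. Of these, 41 were found under the exact symbol, 2 under another symbol of the same gene (itih3a and hpx) and 2 only without the copy letter (f9b and apoba), so that 45 symbols gave 47 genes of the 22994 in the data, since f7 stands for 3 genes. The symbols vtna, vtnb and saa were not matched. A mean of at least 5 normalized counts was needed for testing, and 46 of the 47 genes reached it, all but hp.

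RNA-seq had been carried out on 16 pools of 8 whole zebrafish larvae at 5 days post fertilization (dpf), to learn how larvae respond to chronic cortisol with and without a functional glucocorticoid receptor (GR, encoded by nr3c1). VBA- larvae are homozygous for GR369-, a frameshift allele of nr3c1, and VBA+ larvae are a mixture of their wild type and heterozygous siblings, all in the AB strain. Larvae were told apart at 4 dpf by visual background adaptation (VBA), a pigment response that needs the GR, and not by a genotype of each larva. Both classes developed from soon after fertilization in 1 uM cortisol or in DMSO vehicle. The 4 groups are thus VBA- cortisol, VBA+ cortisol, VBA- vehicle and VBA+ vehicle, with 4 libraries each, numbered 1 to 4. All pools of a condition came from 1 dish and the conditions were collected in sequence, so that condition, dish and order of collection cannot be told apart, and p-values measure the spread between pools of 1 dish.

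Plasma proteins keep blood able to clot without clotting everywhere, mark microbes for destruction and carry what does not dissolve. In the acute-phase response of mammals, inflammatory cytokines such as interleukin 6 change the output of these genes in hepatocytes, and glucocorticoids act together with those cytokines on many of them. In zebrafish larvae the liver is the chief source, and the layer that surrounds the yolk and the intestine also make apolipoproteins, the protein part of lipoprotein particles.

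Values are the deposited log2(normalized count + 0.1), and fold changes are on that log2 scale with their standard error (SE) after ± and p-values from limma, adjusted by Benjamini-Hochberg. Full quantile normalization gave every library the same set of values, summing to 14653434 normalized counts with 310 zeros, so that the sequencing depth is unknown and no counting error can be given. Genes can fall on shared steps: 11 of the 16 libraries have the same value of apoa1b. Over the 16 libraries apoa2 has 4 distinct values, apoeb 5, rbp4 and fabp10a 7 each and apoa4b.1 8. Small differences between groups in these genes are therefore uncertain. Correlations between libraries of a group lay between 0.895 and 0.96. The mutated gene, NR3C1 (ENSDARG00000025032), had a level of 8.81 ± 0.43 in VBA- vehicle libraries, against 9.33 ± 0.16 in VBA+ vehicle libraries (SD, n = 4 each). The VBA- over VBA+ fold change on the log2 scale was -0.52 ± 0.19 (SE, adjusted p 0.276 in limma). In cortisol it had 9.21, 8.69, 8.46 and 7.83 in VBA- cortisol libraries, against 9.49, 9.44, 9.59 and 9.39 in VBA+ cortisol libraries (log2 fold change -0.93 ± 0.25, adjusted p 0.514). The genotypes were apart in cortisol and overlapped in vehicle, and neither difference passed the test. As a check of tissue, fabp10a (ENSDARG00000038439) lay between 11.92 and 12.31 in all 16 libraries. It is itself a member, and encodes the liver fatty acid-binding protein used to mark zebrafish hepatocytes. A list of 23 hepatocyte enzymes and regulators was less even. Its summed normalized counts were 26490 to 48603 in VBA- cortisol, 32407 to 39285 in VBA+ cortisol, 27395 to 44785 in VBA- vehicle and 20155 to 26244 in VBA+ vehicle libraries. The level of fabp10a thus does not show that the share of hepatocytes was even.

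Most members moved together among the libraries, and the groups differed in how far their own libraries spread. The mean deviation of the 46 members from their overall means, on the log2 scale, was -0.45, -0.70, 0.52 and 0.52 in VBA- cortisol libraries 1 to 4 and 0.22, 0.30, 0.26 and 0.11 in VBA+ cortisol libraries. It was 0.00, -0.08, 0.29 and 0.75 in VBA- vehicle libraries and -0.98, -0.85, 0.03 and 0.05 in VBA+ vehicle libraries. Replicates 1 and 2 were below replicates 3 and 4 in VBA- cortisol, in VBA- vehicle and in VBA+ vehicle. In VBA+ vehicle, replicates 3 and 4 lay at the overall mean and below every VBA+ cortisol library, while the VBA+ cortisol libraries lay close together. Of the 46 members, at least 23 had their lowest level of all 16 libraries in VBA+ vehicle 1 and 7 more in VBA+ vehicle 2. At least 22 had their highest in VBA- vehicle 4. A value shared between libraries was credited only to the first in the order of groups above. For example, fgb was equally low in VBA- cortisol 2 and VBA+ vehicle 1, and f2 equally high in VBA- cortisol 4 and VBA- vehicle 4.

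**Figure D1:**
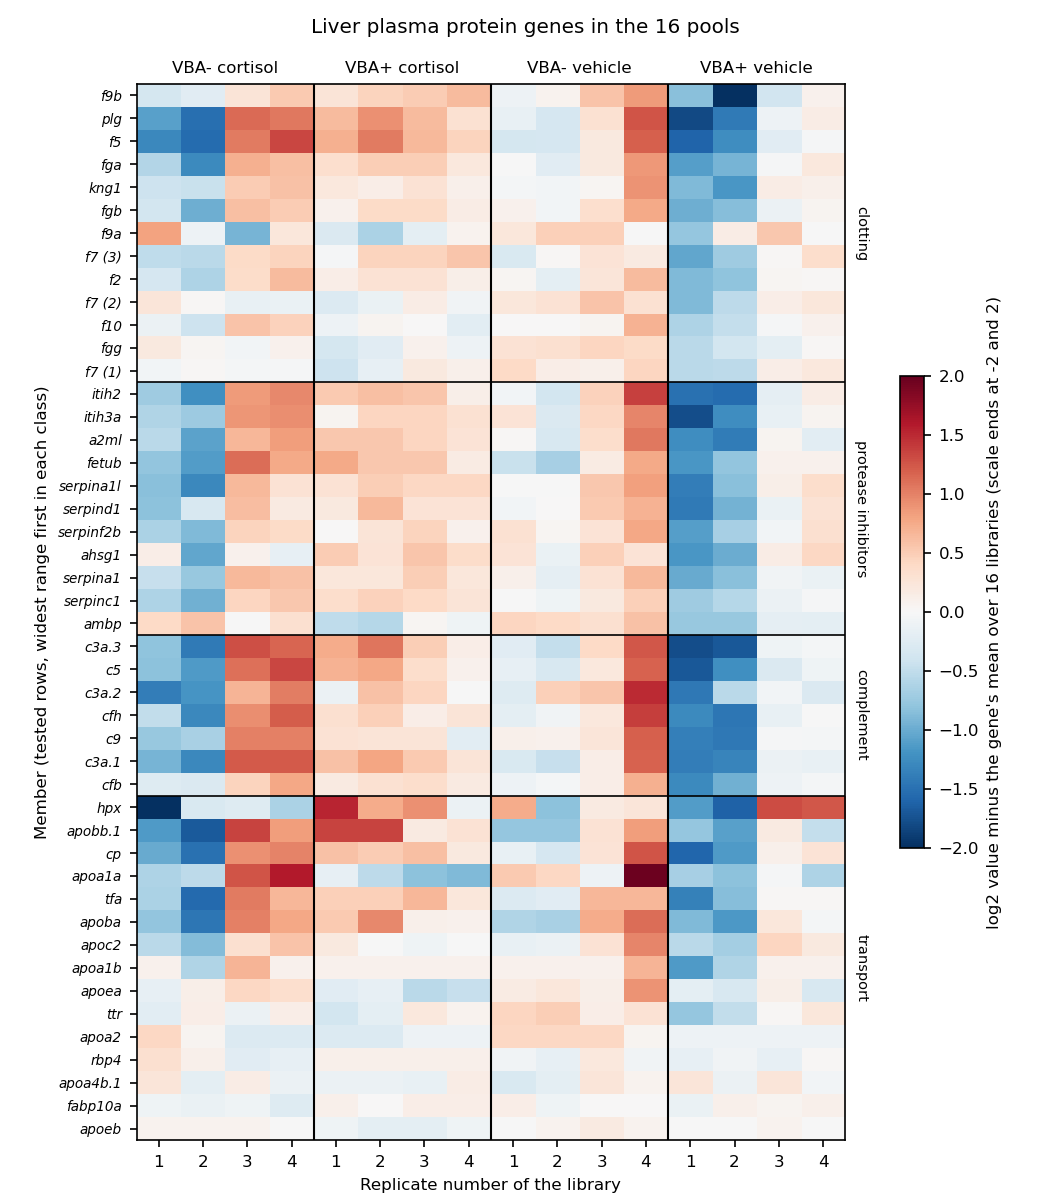
Deviation of each of the 46 tested members (down) from its own mean over 16 libraries (across, 4 per group), on the log2 scale, by class of protein; f7 (1), (2) and (3) are ENSDARG00000034862, ENSDARG00000075827 and ENSDARG00000100782. Most members are lower in replicates 1 and 2 than in replicates 3 and 4 of the VBA- cortisol, VBA- vehicle and VBA+ vehicle groups. Replicates 3 and 4 of VBA+ vehicle are close to the overall mean, and most members are near an even level across the VBA+ cortisol libraries.

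This split by replicate number was measured for each group. Replicates 3 and 4 were both above replicates 1 and 2 for 32 of 46 members in VBA- cortisol (34.3% of all genes tested), for 9 in VBA+ cortisol (30%), for 33 in VBA- vehicle (22.8%) and for 39 in VBA+ vehicle (20.3%). They were both below for 4 members in VBA- cortisol (36.8% of all genes), 10 in VBA+ cortisol (26.8%), 1 in VBA- vehicle (25%) and none in VBA+ vehicle (23%). The median difference over members was 1.16, -0.02, 0.51 and 1.03 in that order of groups, and -0.04, 0.02, -0.02 and -0.01 over all genes. Complement genes had the medians 2.13, -0.25, 0.93 and 1.27. The split was not particular to the members. Of 23 hepatocyte enzymes and regulators, replicates 3 and 4 were both above for 17, 4, 13 and 16, in the same order of groups. Of 9 genes of intestine and yolk lipid export they were both above for 7, 0, 9 and 7. For 9 exocrine pancreas genes the counts were 2, 0, 7 and 8, and for 11 macrophage genes 1, 3, 1 and 2. The sources used here name no batch among these libraries, and each comparison below is also given within replicates 1 and 2 and within replicates 3 and 4. Each such fit has 2 libraries a group, in sets that follow a pattern seen in these same libraries. Calls within a set therefore describe those libraries and are not support for a difference between conditions.

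**Figure D2:**
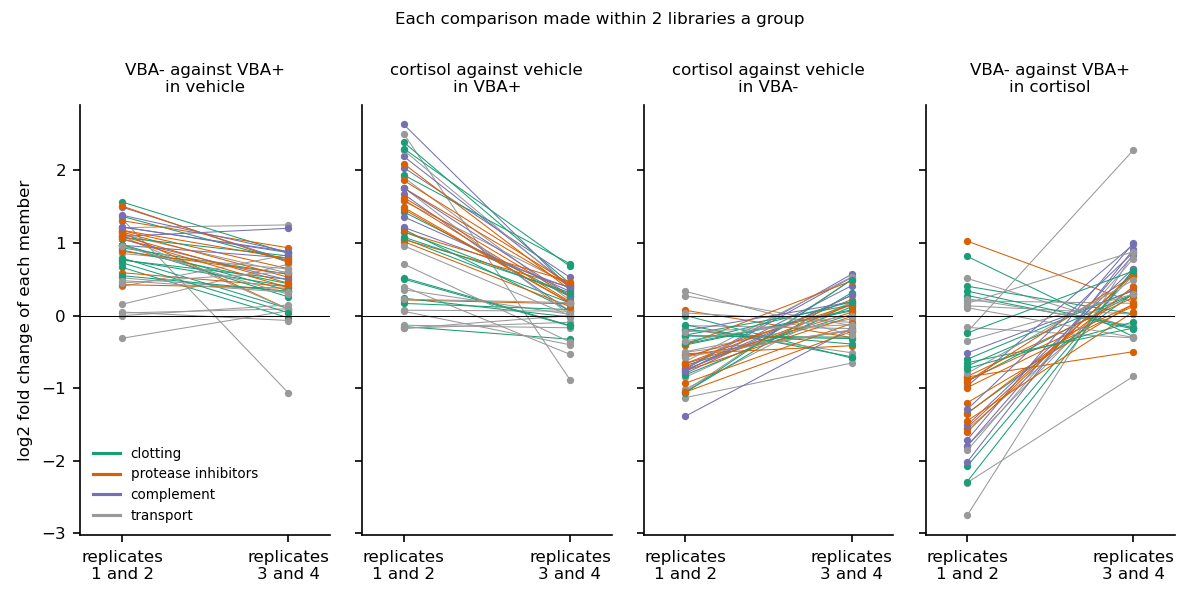
Log2 fold change of each tested member in the 4 comparisons between pairs of groups, with 2 libraries a group taken at a time (replicates 1 and 2, or 3 and 4), joined by a line. The member median for cortisol in VBA+ larvae is 1.20 within replicates 1 and 2 and 0.18 within replicates 3 and 4.

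Cortisol in VBA+ larvae was the comparison with most members called. A call needed an adjusted p no higher than 0.05, a change of 0.5 or more on the log2 scale in either direction, an SE below 1 and a mean level of 75 normalized counts or more. The genes f9a and hpx do not reach that mean. Of the 46 members 15 were upregulated in cortisol-treated VBA+ larvae against vehicle-treated VBA+ larvae and none was downregulated, where 8.22% of all genes were called and 3.6% were called higher. They were 3 of 13 clotting genes, 5 of 11 protease inhibitors, 5 of 7 complement genes and 2 of 15 transport genes. The log2 fold change was above 0 for 40 members, with a median of 0.80, against a median of -0.01 over all genes, of which 48.8% were above 0. An unadjusted p under 0.05 was reached by 30 members and by 34.6% of all genes, higher or lower. In whole larvae, more hepatocytes and more RNA per hepatocyte cannot be told apart.

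The number of calls depended on the fit and on replicates 1 and 2. None of the 15 was called with all 16 libraries in 1 fit, or without the trend in the prior of limma. Within replicates 1 and 2, 31 members were called higher (9.91% of all genes) with a median of 1.20, whereas within replicates 3 and 4 none was called (0.171% of all genes called) and the median was 0.18, with 34 members above 0. Without VBA+ vehicle 1 the count was 2, without VBA+ vehicle 2 it was 0, and it was also 0 without VBA+ cortisol 1 or VBA+ cortisol 2. It was 5 without VBA+ cortisol 3 and 25 without VBA+ vehicle 4. Shares of all genes are not given for fits without a library, with all 16 libraries or without the trend. Those counts therefore do not show whether members lost or gained calls more than other genes did. With replicate number as a block, no member was called in this comparison, where 0.0277% of all genes were called, against 8.22% without it. Same-numbered libraries were not taken as paired here.

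**Figure D3:**
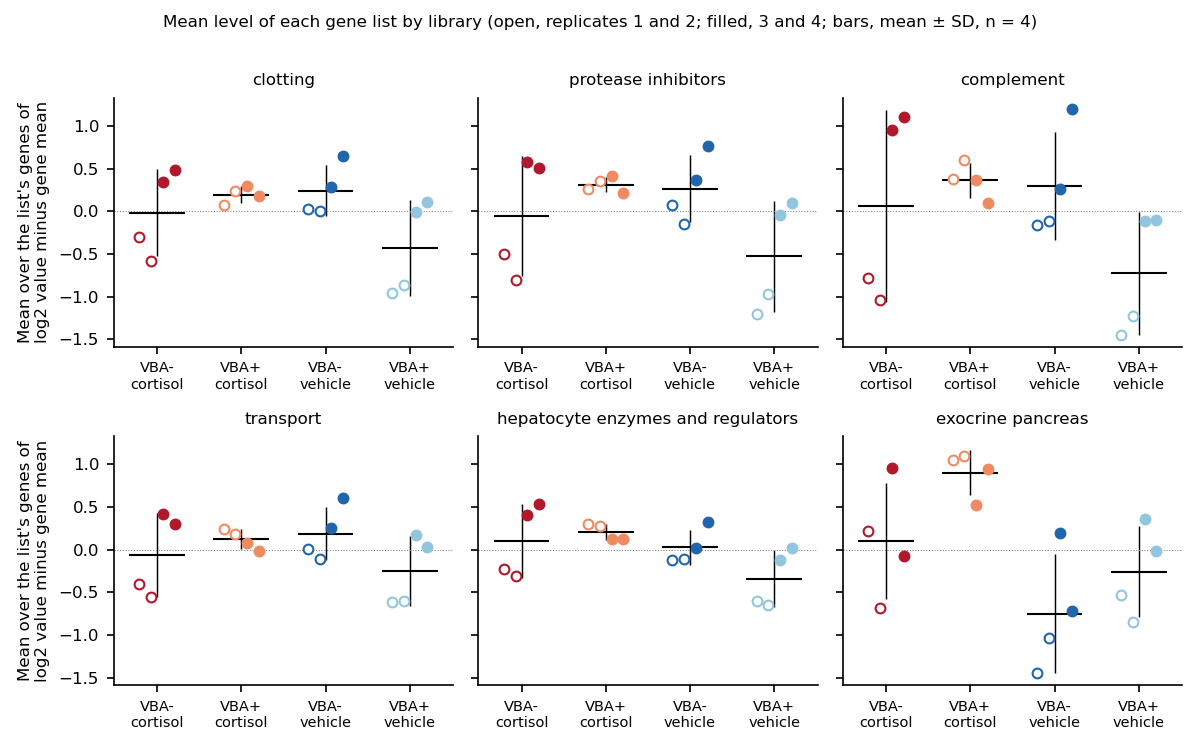
Mean deviation of the genes of each list from their overall means (log2 scale, vertical) in every library, by group (horizontal, bars at mean ± SD, n = 4), for the 4 classes of members and for 2 other lists, hepatocyte enzymes and regulators and exocrine pancreas. Libraries 1 and 2 of the VBA+ vehicle group (open points) are the lowest points in the 4 classes of members.

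Among clotting genes, f5, fgb and plg were called higher in cortisol-treated than in vehicle-treated VBA+ larvae. f5 (ENSDARG00000055705) encodes factor V, the cofactor that speeds the making of thrombin, and had 9.02, 9.34, 8.95 and 8.76 in VBA+ cortisol libraries, against 6.70, 7.07, 8.08 and 8.28 in VBA+ vehicle libraries. Every cortisol library lay above every vehicle library, and the change on the log2 scale was 1.49 ± 0.31 (SE, adjusted p 0.0194 in limma). It was 2.30 within replicates 1 and 2 and 0.68 within replicates 3 and 4. plg (ENSDARG00000023111), the precursor of plasmin, which dissolves fibrin, had 11.33, 11.61, 11.33 and 10.99 in VBA+ cortisol libraries, against 8.88, 9.28, 10.59 and 10.85 in VBA+ vehicle libraries (log2 fold change 1.41 ± 0.38, adjusted p 0.0374). The lowest cortisol library of plg lay only just above the highest vehicle library, and the fold change was 2.39 within replicates 1 and 2 against 0.44 within replicates 3 and 4.

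The 3 chains of fibrinogen, which thrombin turns into the fibrin mesh of a clot, did not have the same values. fgb (ENSDARG00000008969), the beta chain, had 10.51, 10.80, 10.80 and 10.57 in VBA+ cortisol libraries, against 9.44, 9.57, 10.31 and 10.48 in VBA+ vehicle libraries (log2 fold change 0.72 ± 0.21, adjusted p 0.0479), without overlap. fga (ENSDARG00000020741), the alpha chain, had 11.06, 11.23, 11.23 and 10.94 in VBA+ cortisol libraries, against 9.63, 9.81, 10.72 and 10.94 in VBA+ vehicle libraries, and did not pass (log2 fold change 0.84 ± 0.26, adjusted p 0.0526). fgg (ENSDARG00000037281), the gamma chain, had 10.96, 11.09, 11.39 and 11.21 in VBA+ cortisol libraries, against 10.77, 10.94, 11.11 and 11.33 in VBA+ vehicle libraries, and differed by 0.12 ± 0.13 (adjusted p 0.512 in limma, 95% interval -0.16 to 0.41). Among the VBA+ libraries all 3 chains were thus lowest in vehicle libraries 1 and 2. The treatments were apart for the beta chain, met at 1 shared value for the alpha chain and overlapped for the gamma chain. The log2 ratio of fga to fgg was -0.04 ± 0.20 in VBA+ cortisol and -0.76 ± 0.43 in VBA+ vehicle (SD, n = 4 each), and that of fgb to fgg was -0.49 ± 0.16 and -1.09 ± 0.30. Each of these ratios, looked at after the levels were seen, had a p of 0.0286 in a two-sided exact permutation test, the smallest that 4 against 4 can give, and an adjusted p of 0.171 over the 12 such tests made.

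The other clotting genes did not pass in this comparison. f2 (ENSDARG00000036041), prothrombin, had 10.46, 10.62, 10.62 and 10.44 in VBA+ cortisol libraries, against 9.44, 9.52, 10.37 and 10.35 in VBA+ vehicle libraries (log2 fold change 0.62 ± 0.21, adjusted p 0.0659). f9b (ENSDARG00000029493), a copy of factor IX, had 7.17, 7.36, 7.41 and 7.53 in VBA+ cortisol libraries, against 6.07, 4.59, 6.53 and 6.99 in VBA+ vehicle libraries (log2 fold change 1.32 ± 0.41, adjusted p 0.0537). In both of these the cortisol libraries lay above all vehicle libraries, and VBA+ vehicle 2 was far below the rest in f9b. The 3 genes that share the symbol f7, factor VII, which starts clotting at a wound, had log2 fold changes of 0.11, 0.18 and 0.70, and reads may be shared between them. Factor X (f10) and kininogen (kng1) had 0.19 and 0.63, and f9a, the other copy of factor IX, had -0.24.

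Protease inhibitors held 5 calls. serpinc1 (ENSDARG00000042684), antithrombin, which blocks thrombin, had 10.54, 10.64, 10.58 and 10.43 in VBA+ cortisol libraries, against 9.47, 9.60, 10.07 and 10.16 in VBA+ vehicle libraries (log2 fold change 0.72 ± 0.15, adjusted p 0.0178). a2ml (ENSDARG00000056314), related to alpha-2-macroglobulin, which traps proteases of many kinds, had 11.80, 11.80, 11.69 and 11.53 in VBA+ cortisol libraries, against 10.02, 9.86, 11.30 and 11.05 in VBA+ vehicle libraries (log2 fold change 1.15 ± 0.29, adjusted p 0.0297). Neither gene overlapped between treatments, and the vehicle libraries split into a low pair, 1 and 2, and a higher pair, 3 and 4. serpina1 (ENSDARG00000090286), alpha-1-antitrypsin, the inhibitor of neutrophil elastase, had 12.68, 12.68, 12.94 and 12.68 in VBA+ cortisol libraries, against 11.45, 11.61, 12.37 and 12.31 in VBA+ vehicle libraries (log2 fold change 0.81 ± 0.20, adjusted p 0.028). fetub (ENSDARG00000053973), a fetuin that inhibits metalloproteases of the astacin family, had 14.15, 13.93, 13.93 and 13.56 in VBA+ cortisol libraries, against 12.23, 12.60, 13.48 and 13.48 in VBA+ vehicle libraries (log2 fold change 0.95 ± 0.26, adjusted p 0.0405). The groups were apart in both of these genes. itih2 (ENSDARG00000045516), a heavy chain of the inter-alpha-trypsin inhibitor, had 11.72, 11.80, 11.75 and 11.30 in VBA+ cortisol libraries, against 9.69, 9.64, 11.01 and 11.33 in VBA+ vehicle libraries (log2 fold change 1.22 ± 0.35, adjusted p 0.043). Here the lowest cortisol library, number 4, lay just below the highest vehicle library.

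The 6 inhibitors that did not pass had fold changes above 0 as well. serpina1l (ENSDARG00000090850), the neighbouring copy of serpina1, had 13.03, 13.23, 13.15 and 13.15 in VBA+ cortisol libraries, against 11.37, 11.91, 12.87 and 13.09 in VBA+ vehicle libraries (log2 fold change 0.83 ± 0.31, adjusted p 0.0919). Heparin cofactor II (serpind1) had 0.89 ± 0.31, alpha-2-antiplasmin (serpinf2b) 0.57 ± 0.26, itih3a 1.08 ± 0.35 and the fetuin ahsg1 0.82 ± 0.31. ambp (ENSDARG00000004296), whose product is split into alpha-1-microglobulin and bikunin, the light chain of the inter-alpha-trypsin inhibitor, had 10.37, 10.31, 10.91 and 10.78 in VBA+ cortisol libraries, against 10.12, 10.12, 10.70 and 10.67 in VBA+ vehicle libraries (log2 fold change 0.19 ± 0.18, adjusted p 0.473). The treatments overlapped, and the 95% interval of the difference ran from -0.21 to 0.58.

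Complement was the class with the largest share called, and all 7 of its genes had fold changes above 0, with a median of 1.02. c3a.1 (ENSDARG00000012694) and c3a.3 (ENSDARG00000052207) are copies of C3, the component on which all complement pathways meet. The first had 11.58, 11.80, 11.53 and 11.26 in VBA+ cortisol libraries, against 9.62, 9.69, 10.89 and 10.85 in VBA+ vehicle libraries (log2 fold change 1.28 ± 0.29, adjusted p 0.0226). The second had 10.41, 10.73, 10.16 and 9.81 in VBA+ cortisol libraries, against 7.90, 7.98, 9.59 and 9.63 in VBA+ vehicle libraries (log2 fold change 1.50 ± 0.40, adjusted p 0.0357). Both were upregulated without overlap, c3a.2 did not pass (log2 fold change 0.80 ± 0.27, adjusted p 0.0717), and reads shared among these copies make each value uncertain. c5 (ENSDARG00000021004), which starts the terminal pathway, had 9.75, 9.83, 9.41 and 9.14 in VBA+ cortisol libraries, against 7.37, 7.83, 8.77 and 8.97 in VBA+ vehicle libraries (log2 fold change 1.30 ± 0.32, adjusted p 0.0293). cfb (ENSDARG00000055278), the protease of the alternative pathway, had 9.57, 9.70, 9.74 and 9.57 in VBA+ cortisol libraries, against 8.12, 8.43, 9.29 and 9.35 in VBA+ vehicle libraries (log2 fold change 0.85 ± 0.25, adjusted p 0.045). cfh (ENSDARG00000100442), which restrains that pathway, had 9.41, 9.56, 9.23 and 9.35 in VBA+ cortisol libraries, against 7.81, 7.64, 8.95 and 9.08 in VBA+ vehicle libraries (log2 fold change 1.02 ± 0.30, adjusted p 0.0451). In each of these 3 genes the groups were apart, with vehicle libraries 1 and 2 the lowest. c9 (ENSDARG00000016319), which forms the membrane pore, did not pass (log2 fold change 0.86 ± 0.32, adjusted p 0.087). Within replicates 3 and 4 the fold changes of the 5 called complement genes were between 0.28 (cfh) and 0.53 (c3a.1), against 1.36 (cfb) to 2.63 (c3a.3) within replicates 1 and 2.

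Transport genes held 2 calls, and several of them hardly differed. tfa (ENSDARG00000016771), transferrin, the iron carrier, had 13.48, 13.48, 13.67 and 13.23 in VBA+ cortisol libraries, against 11.66, 12.15, 13.03 and 13.03 in VBA+ vehicle libraries (log2 fold change 1.00 ± 0.27, adjusted p 0.0381). apobb.1 (ENSDARG00000022767), a copy of apolipoprotein B, on which lipoprotein particles are built, had 15.21, 15.21, 14.04 and 14.15 in VBA+ cortisol libraries, against 13.09, 12.78, 14.04 and 13.39 in VBA+ vehicle libraries (log2 fold change 1.33 ± 0.32, adjusted p 0.0285). The treatments were apart for tfa, and for apobb.1 they met at 1 shared value. Ceruloplasmin (cp), which carries copper, and apoba, the other copy of apolipoprotein B, did not pass, at 1.06 ± 0.36 and 0.89 ± 0.30.

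The retinol carrier and most of the other apolipoprotein genes differed less between treatments, and none of them was called. rbp4 (ENSDARG00000101199) had 13.56, 13.56, 13.56 and 13.56 in VBA+ cortisol libraries, against 13.29, 13.39, 13.29 and 13.48 in VBA+ vehicle libraries (log2 fold change 0.20 ± 0.07, adjusted p 0.0672). apoeb (ENSDARG00000040295), a copy of apolipoprotein E, had 13.78, 13.67, 13.67 and 13.78 in VBA+ cortisol libraries, against 13.86, 13.86, 13.93 and 13.86 in VBA+ vehicle libraries (log2 fold change -0.15 ± 0.06, adjusted p 0.128). The cortisol libraries of rbp4 lay above all vehicle libraries. Those of apoeb lay below all vehicle libraries, the only member to do so, where 11.8% of all genes did. Over the 16 libraries rbp4 has 7 distinct values and apoeb 5, so such a gap can be a step of the normalization. In all, 16 members were apart and higher, where 8.44% of all genes were. apoa1b (ENSDARG00000101324), with apoa1a a copy of the main protein of high-density lipoprotein, had 15.54, 15.54, 15.54 and 15.54 in VBA+ cortisol libraries, against 14.31, 14.84, 15.54 and 15.54 in VBA+ vehicle libraries (log2 fold change 0.48 ± 0.23, adjusted p 0.172). The differences were -0.07 for apoa1a, -0.09 for apoa2, -0.17 for apoea, 0.17 for apoc2, -0.13 for apoa4b.1, 0.19 for transthyretin (ttr) and 0.07 for fabp10a. For fabp10a the 95% interval was -0.10 to 0.23. Over the 15 transport genes the median was 0.19, against 0.63 in clotting, 0.83 in protease inhibitors and 1.02 in complement.

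**Figure D4:**
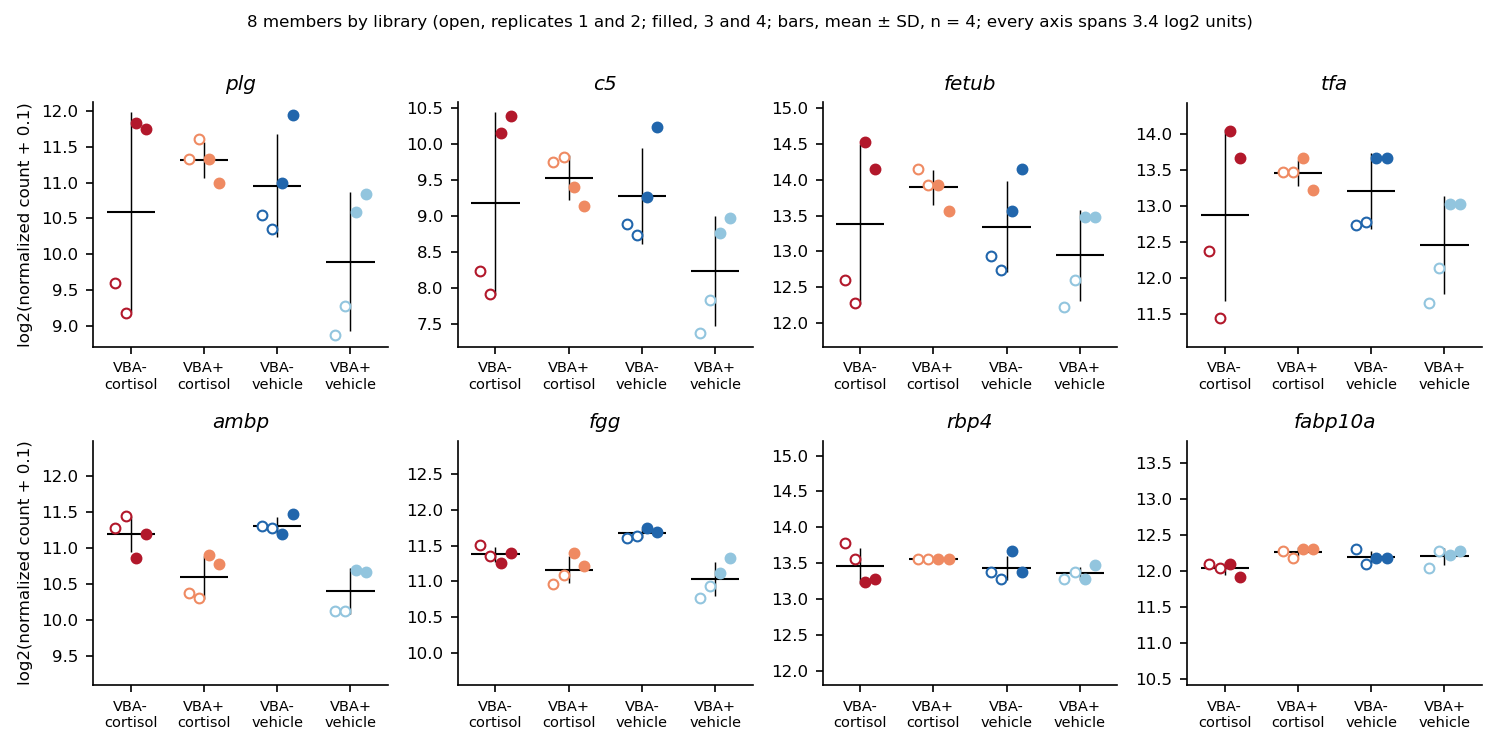
Level of 8 members, as log2(normalized count + 0.1), in each library by group, with bars at the group mean ± SD (n = 4). The members plg, c5, fetub and tfa spread widely within the VBA- cortisol and VBA+ vehicle groups, whereas rbp4 and fabp10a stay within 0.54 and 0.40 over all 16 libraries.

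Other genes were counted beside the members in this comparison, where 3.6% of all genes were called higher. Of 23 hepatocyte enzymes and regulators 7 were called higher in cortisol, with a median of 0.55 over the list. Among them were pck1, the rate-limiting enzyme of gluconeogenesis (0.75 ± 0.12, adjusted p 0.0112 in limma), g6pca.1, which releases glucose (0.99), and hnf4a, a regulator of hepatocyte genes (0.61). The summed normalized counts of the 23 were 32407 to 39285 in VBA+ cortisol and 20155 to 26244 in VBA+ vehicle libraries. Of 29 other plasma protein genes 4 were upregulated, c4b (1.71), c8b, lcat (1.00) and masp2 (1.09), with a median of 0.30. Exocrine pancreas genes moved too: 8 of 9 were upregulated with a median of 1.28, and their summed counts were 38445 to 59116 in VBA+ cortisol and 12235 to 35233 in VBA+ vehicle libraries. Macrophage genes, with 1 call of 11, summed to 1279 to 1469 in VBA+ cortisol and 971 to 1172 in VBA+ vehicle libraries. Within replicates 1 and 2, 13 hepatocyte, 11 other plasma protein, 8 exocrine pancreas and 1 macrophage genes were called higher (9.91% of all genes). Their lists had medians of 0.81, 0.48, 1.92 and 0.38 in that order. Within replicates 3 and 4 no gene of these lists was called (0.171% of all genes), and the medians were 0.23, 0.08, 0.60 and 0.32. No gene of these lists was at 0 in all libraries of a group, and the part of other cell types in the members' values was not tested.

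Loss of the GR was examined in vehicle, where 44 of 46 members had a fold change above 0 in VBA- against VBA+ larvae, with a median of 0.66, against -0.02 over all genes, of which 46.7% were above 0. Only ambp was called, where 0.235% of all genes were called and 0.171% were called higher. ambp had 11.30, 11.28, 11.19 and 11.47 in VBA- vehicle libraries, against 10.12, 10.12, 10.70 and 10.67 in VBA+ vehicle libraries, with every VBA- library above every VBA+ library (log2 fold change 0.91 ± 0.14, adjusted p 0.0461). Its fold change was 1.17 within replicates 1 and 2 and 0.64 within replicates 3 and 4. The adjusted p lay between 0.0596 and 0.141 when each of the 8 libraries was left out in turn, so that the call needed all of them. It was also lost with all 16 libraries in 1 fit (adjusted p 0.0643) and without the trend in the prior (adjusted p 0.174). At an unadjusted p under 0.05 there were 30 members, and 14% of all genes.

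Same-numbered libraries of these 2 groups deviated together from their group means, with correlations across genes of 0.253, 0.212, 0.309 and 0.235. Such correlations were all negative for cortisol in VBA+ larvae and for genotypes in cortisol (-0.601, -0.590, -0.449 and -0.625). For cortisol in VBA- larvae they were 0.288, 0.657, 0.0782 and 0.670. No source says what a shared number stands for, and same-numbered pools of different groups came from different dishes. The pairing was taken from these same data, so calls with the block are uncertain. With replicate number as a block, 17 members were called, all higher, where 0.899% of all genes were called and 0.715% were called higher. They included all 7 complement genes, 4 clotting genes (f5, fgb, fgg and plg), 5 protease inhibitors (ambp, itih2, a2ml, serpina1 and serpina1l) and 1 transport gene, tfa. The fold changes are those of the fit without the block: itih2 had 1.12 ± 0.44 there, with an adjusted p of 0.314, and an adjusted p of 0.0145 with the block. For tfa the adjusted p was 0.0188 with the block and 0.348 without it, at a fold change of 0.75. For c5 it was 0.0293 with the block and 0.286 without it, at 1.05.

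Members whose genotypes were apart in vehicle numbered 5, all higher in VBA-, where 4.08% of all genes were apart and higher. Besides ambp these were fgg, one f7 gene, c9 and apoa2. fgg had 11.61, 11.63, 11.75 and 11.69 in VBA- vehicle libraries, against 10.77, 10.94, 11.11 and 11.33 in VBA+ vehicle libraries (log2 fold change 0.63 ± 0.11, adjusted p 0.0518), just outside the limit. The f7 gene ENSDARG00000075827 had 8.60, 8.66, 8.93 and 8.67 in VBA- vehicle libraries, against 7.48, 7.85, 8.50 and 8.59 in VBA+ vehicle libraries (log2 fold change 0.61 ± 0.22, adjusted p 0.279). The 4 VBA- libraries of fgg lay within a narrow range, and VBA+ vehicle 1 was the lowest library in both genes. c9 had 10.98, 10.96, 11.11 and 12.07 in VBA- vehicle libraries, against 9.51, 9.44, 10.85 and 10.83 in VBA+ vehicle libraries (log2 fold change 1.12 ± 0.37, adjusted p 0.231), with VBA- vehicle 4 far above the others. apoa2 (ENSDARG00000015866), a protein of high-density lipoprotein, had 15.21, 15.21, 15.21 and 14.84 in VBA- vehicle libraries, against 14.69, 14.69, 14.69 and 14.69 in VBA+ vehicle libraries (log2 fold change 0.43 ± 0.09, adjusted p 0.0933).

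The class medians in this comparison were 0.63 in clotting, 0.77 in protease inhibitors, 1.05 in complement and 0.43 in transport. Among complement genes c3a.2, c3a.3 and cfh had 1.15 ± 0.36, 1.13 ± 0.47 and 1.04 ± 0.40, and none of them passed without the block. Among carriers, apoa1a (ENSDARG00000012076) had 13.78, 13.67, 13.16 and 15.21 in VBA- vehicle libraries, against 12.60, 12.43, 13.23 and 12.64 in VBA+ vehicle libraries, where VBA- vehicle 4 was the highest of all and VBA- vehicle 3 lay within the VBA+ range (log2 fold change 1.23 ± 0.36, adjusted p 0.199). The smallest differences were -0.01 for fabp10a, 0.06 for apoeb and 0.07 for rbp4. For fabp10a the groups overlapped and the 95% interval was -0.18 to 0.16.

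The genotype difference in vehicle was on the same side in both sets of replicates. Within replicates 1 and 2 the member median was 0.97 and 4 members were called higher, c9, ambp, apoa1a and apoa2, where 0.083% of all genes were called. Within replicates 3 and 4 the median was 0.49 with 43 members above 0, none called in limma where 0.0138% of all genes were called. VBA+ vehicle libraries enter this comparison and that of cortisol in VBA+ larvae, so the values of both share libraries 1 and 2, which are low. Of the other lists, other plasma protein genes had a median of 0.53 (26 of 29 above 0), hepatocyte enzymes and regulators 0.37 (21 of 23), macrophage genes 0.40 (10 of 11) and exocrine pancreas genes -0.52 (0 of 9). No gene of these lists was called without the block. With it, 6 of 29 other plasma protein genes, 2 of 23 hepatocyte enzymes and regulators and 1 of 9 genes of intestine and yolk lipid export were called, all higher, and within replicates 1 and 2 alone 1 of 29 other plasma protein genes was.

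**Figure D5:**
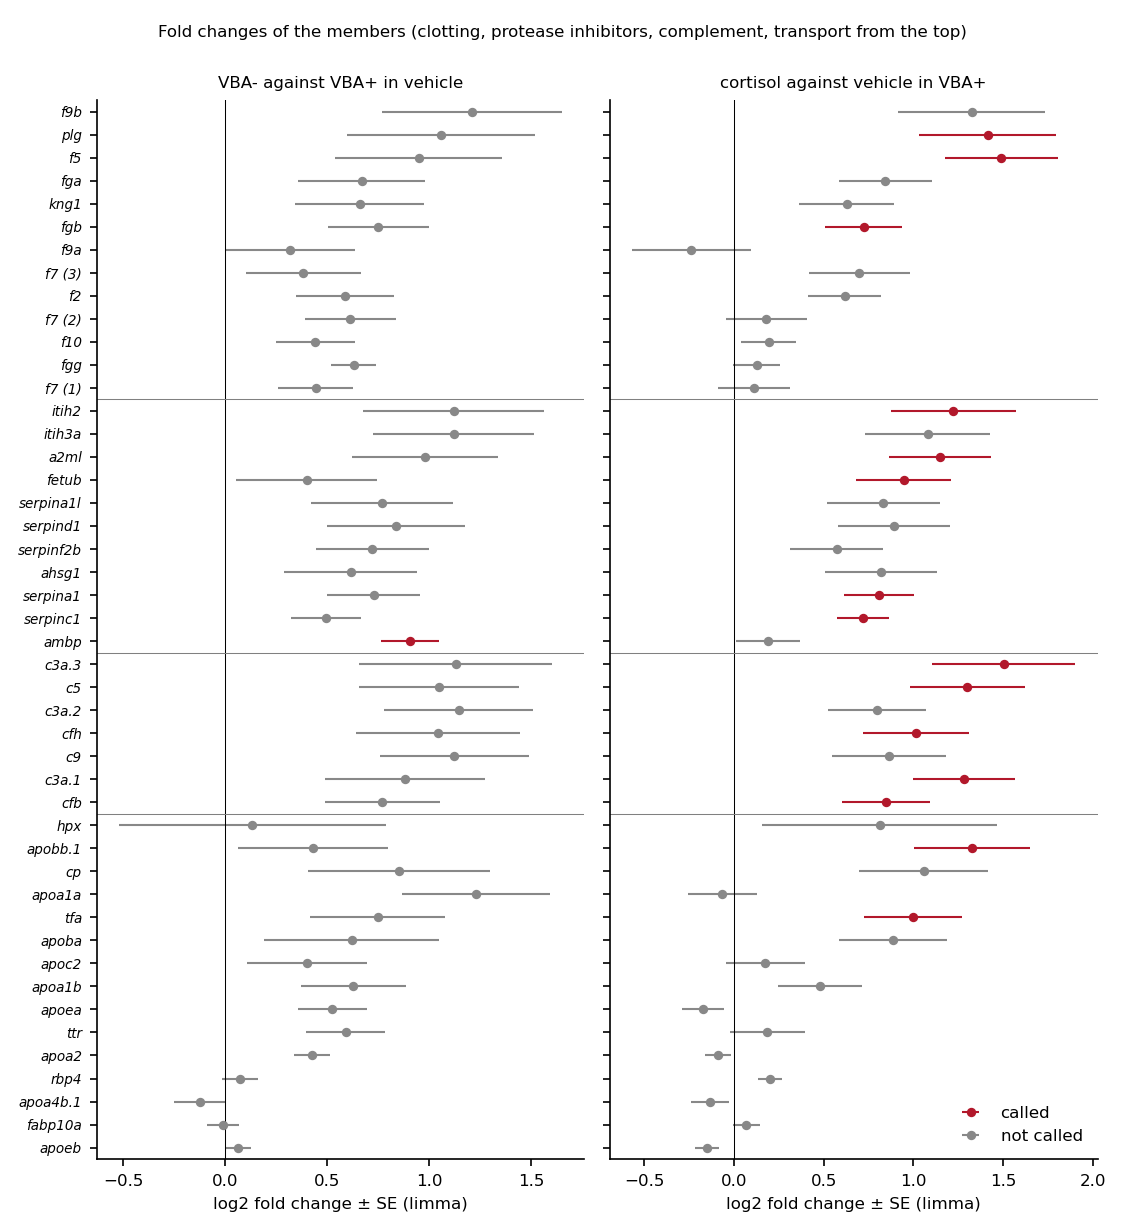
Log2 fold change ± SE (limma) of each of the 46 tested members, by class, for VBA- against VBA+ in vehicle (left) and for cortisol against vehicle in VBA+ (right), with called members in red. Of the members 44 lie above 0 on the left, with 1 called, and 40 on the right, with 15 called.

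Cortisol in VBA- larvae changed no member by the test. Of the 46 members 43 had a fold change below 0, with a median of -0.28, against -0.01 over all genes, of which 52.5% were below 0. No member and no gene at all was called in limma (0%), and 4 members had an unadjusted p under 0.05, as did 1.79% (389) of all genes. The study, with another test (DESeq2), reported genes upregulated in this comparison. The absence of calls in limma thus does not show that no gene responded. Members apart and lower in cortisol numbered 3, where 0.839% of all genes were apart and lower. fgg had 11.50, 11.35, 11.26 and 11.39 in VBA- cortisol libraries, against 11.61, 11.63, 11.75 and 11.69 in VBA- vehicle libraries (log2 fold change -0.29 ± 0.09, adjusted p 1). The f7 gene ENSDARG00000034862 had 8.33, 8.40, 8.34 and 8.35 in VBA- cortisol libraries, against 8.77, 8.52, 8.48 and 8.81 in VBA- vehicle libraries (log2 fold change -0.29 ± 0.12, adjusted p 1). ttr (ENSDARG00000037191), the thyroid hormone carrier, had 9.92, 10.26, 10.02 and 10.26 in VBA- cortisol libraries, against 10.57, 10.62, 10.27 and 10.43 in VBA- vehicle libraries (log2 fold change -0.36 ± 0.13, adjusted p 1). These 3 genes had narrow ranges in both treatments.

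The genes that passed in VBA+ larvae spread widely in cortisol-treated VBA- larvae. In plg the values were 9.61, 9.18, 11.82 and 11.75 in VBA- cortisol libraries, against 10.55, 10.35, 10.99 and 11.95 in VBA- vehicle libraries (log2 fold change -0.37 ± 0.63, adjusted p 1). In fetub they were 12.60, 12.28, 14.52 and 14.15 in VBA- cortisol libraries, against 12.94, 12.73, 13.56 and 14.15 in VBA- vehicle libraries (log2 fold change 0.04 ± 0.52, adjusted p 1). In tfa they were 12.37, 11.45, 14.04 and 13.67 in VBA- cortisol libraries, against 12.73, 12.78, 13.67 and 13.67 in VBA- vehicle libraries (log2 fold change -0.33 ± 0.53, adjusted p 1). In each of the 3, cortisol libraries 1 and 2 lay below all vehicle libraries and libraries 3 and 4 among the highest. Within replicates 1 and 2 the member median was -0.56 with 41 members below 0, and within replicates 3 and 4 it was 0.01 with 23 members above 0 and 22 below. Exocrine pancreas genes, in the same libraries, were all 9 above 0 with a median of 0.72 and none called.

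Between genotypes in cortisol the direction depended on the replicates. Over all 8 libraries 33 of 46 members were below 0 in VBA- against VBA+ larvae, with a median of -0.30, against 0.00 over all genes, of which 49.7% were below 0. None was called in limma, as was no gene at all (0%), and 5 members had an unadjusted p under 0.05, beside 7.84% of all genes. Within replicates 1 and 2 the median was -0.87, with 29 members called lower and 2 called higher, where 14.4% of all genes were called lower and 15.3% higher. Within replicates 3 and 4 the median was 0.30, with 35 members above 0 and 2 called higher, where 0.12% of all genes were called higher.

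Single members show that turn. c5 had 8.23, 7.92, 10.15 and 10.39 in VBA- cortisol libraries, against 9.75, 9.83, 9.41 and 9.14 in VBA+ cortisol libraries, so that libraries 1 and 2 of VBA- lay below, and libraries 3 and 4 above, all VBA+ libraries. Its fold change was -1.71 within replicates 1 and 2 and 1.00 within replicates 3 and 4. The values of f5 were 7.02, 6.77, 9.34 and 9.64 in VBA- cortisol libraries, against 9.02, 9.34, 8.95 and 8.76 in VBA+ cortisol libraries, with -2.29 within replicates 1 and 2 and 0.64 within replicates 3 and 4. For apobb.1 they were 12.73, 12.18, 15.21 and 14.69 in VBA- cortisol libraries, against 15.21, 15.21, 14.04 and 14.15 in VBA+ cortisol libraries, with -2.75 and 0.86 in that order. The 2 members called higher within replicates 1 and 2 were ambp (1.03) and apoa2 (0.51), and those within replicates 3 and 4 were apoa1a (2.28) and apoea (0.88).

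A few members kept the genotypes apart over all 4 replicates in cortisol, 1 higher, where 2.41% of all genes were apart and higher, and 3 lower, where 1.76% were apart and lower. The higher one was apoeb, with 13.93, 13.93, 13.93 and 13.86 in VBA- cortisol libraries, against 13.78, 13.67, 13.67 and 13.78 in VBA+ cortisol libraries (log2 fold change 0.19 ± 0.09, adjusted p 0.591). fabp10a had 12.10, 12.04, 12.10 and 11.92 in VBA- cortisol libraries, against 12.28, 12.18, 12.31 and 12.31 in VBA+ cortisol libraries (log2 fold change -0.24 ± 0.09, adjusted p 0.591). ahsg1 (ENSDARG00000026764), a fetuin, had 9.39, 8.22, 9.36 and 9.10 in VBA- cortisol libraries, against 9.77, 9.54, 9.82 and 9.63 in VBA+ cortisol libraries (log2 fold change -0.67 ± 0.24, adjusted p 0.591). VBA- libraries were lower in both, by a small margin for fabp10a. hpx (ENSDARG00000012609), hemopexin, the heme carrier, had 3.19, 4.91, 4.96 and 4.59 in VBA- cortisol libraries, against 6.74, 5.96, 6.13 and 5.09 in VBA+ cortisol libraries (log2 fold change -1.57 ± 0.47, adjusted p 0.543), and was too low in level to be called. ambp, the gene called in vehicle, had 11.28, 11.45, 10.86 and 11.19 in VBA- cortisol libraries, against 10.37, 10.31, 10.91 and 10.78 in VBA+ cortisol libraries, and only VBA- library 3 reached into the VBA+ range (log2 fold change 0.60 ± 0.18, adjusted p 0.543).

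The cortisol effect was compared between genotypes as an interaction over all 16 libraries, and no member passed in limma. The fold change in VBA- minus that in VBA+ was below 0 for 44 of 46 members, with a median of -1.04. Over all genes the median was 0.01, and 49.2% were below 0. Other lists leaned the same way. Below 0 were 24 of 29 other plasma protein genes (median -0.43), 21 of 23 hepatocyte enzymes and regulators (-0.43) and 10 of 11 macrophage genes (-0.52). So were 7 of 9 exocrine pancreas genes (-0.48), 8 of 9 of intestine and yolk lipid export (-0.21) and 8 of 10 of acute-phase signalling (-0.13). Of all genes 0.00461% were called. At an unadjusted p under 0.05 there were 17 members, and 5.25% of all genes. For f5 the difference of effects was -1.77 ± 0.82 (SE, adjusted p 0.726 in limma), for c3a.3 -1.68 ± 0.83 (SE, adjusted p 0.726 in limma) and for plg -1.78 ± 0.82 (SE, adjusted p 0.726 in limma). Within replicates 1 and 2, 35 members were called lower (11% of all genes), with a median of -1.89. Within replicates 3 and 4 none was called, where 0.0184% of all genes were, and the median was -0.16. An effect called in VBA+ and not in VBA- larvae was thus not shown to differ between them over all replicates.

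Members differed in how even they were over the 16 libraries. The range from lowest to highest library, on the log2 scale, was 3.56 for hpx, 3.16 for f9b and 3.06 for both plg and c3a.3. It was 0.37 for apoeb, 0.40 for fabp10a, 0.54 for both apoa4b.1 and rbp4 and 0.70 for apoa2. The even members lie on few shared steps, with 4 (apoa2) to 8 (apoa4b.1) distinct values, against 14 for plg and 16 for c3a.3. How even they are is therefore uncertain. On 9 distinct values apobb.1 ranged over 3.03. The member under the limit for testing, hp (ENSDARG00000051890), haptoglobin, which binds free hemoglobin, was listed at 0 in VBA- cortisol 2 and VBA+ vehicle 2 (-3.32 on the log2 scale), with a mean of 3.88 normalized counts. Summed over the members, normalized counts were 149171 to 315727 in VBA- cortisol, 215603 to 246794 in VBA+ cortisol, 207792 to 332776 in VBA- vehicle and 134195 to 212599 in VBA+ vehicle libraries. For complement the sums were 3462 to 14616, 7177 to 10365, 6011 to 15277 and 2511 to 6345 in that order of groups, the widest being VBA- cortisol. Genes next to each other on a chromosome in the RefSeq order were c3a.2 and c3a.3, apoa2 and apoc2, serpina1l and serpina1, and ahsg1 and fetub. The last pair did not have like values in cortisol-treated VBA- larvae, where ahsg1 was lowest in library 2 and about level in the others and fetub was low in libraries 1 and 2 and high in libraries 3 and 4.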

How the data were processed

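Total RNA of 16 pools of whole larvae was sequenced from poly-A libraries. The authors trimmed reads (Trimmomatic), aligned them to GRCz11 (STAR 2.6.1b), estimated gene expression (RSEM 1.3.0) and normalized it with EDASeq, for GC content and by full quantiles. The deposited values are the log2 of these normalized counts plus 0.1. The authors' DESeq2 test needs counts, so limma 3.58.1 (R 4.3.3; lmFit, eBayes with trend) was used, with Benjamini-Hochberg adjustment over 21686 genes with a mean of at least 5 normalized counts. The limits for a call are those of the study, the mean of at least 75 included, which 13772 genes reached. Pairs of groups were fitted on their 8 libraries, and the interaction on all 16. The fits were tested on simulated data with independent noise, which held no deviation shared across the genes of a library and no quantile steps.

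Same-numbered libraries were taken as paired where every correlation of deviations exceeded 0.1, which held for the genotypes in vehicle. The labels say nothing about what a number shares, so this pairing comes from the data.

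The members and the other gene lists were chosen with earlier results of these data known. All members may be named, and values are given by library for those called, those without overlap and the highest of each class. Gene IDs were paired with symbols through the gene name table supplied. Genes listed as VTN were not resolved to vtna or vtnb, and dropping the copy letter of f9b and apoba makes their identity less sure. No sequence was used here. RSEM can share reads between near-identical copies (c3a.1, c3a.2 and c3a.3; apoa1a and apoa1b; apoea and apoeb; serpina1 and serpina1l; the f7 genes). The values are not per length, so mean levels served only to choose which members to give by library. Alternatives were another pseudocount, filter, limit, prior, fit or weighting, a block or a term for replicates, each set of replicates alone, and leaving out each library. Plots were made in Python 3.11.15 (matplotlib 3.10.9).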

Additional observations from a re-analysis of the deposited data

Results flagged for a closer look

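In 12 of the 184 sets of 4 libraries examined (46 members in 4 groups), 1 library stood apart from the other 3 by a larger share of the range of the 4 values than the 95% limit of Dixon's test. Chance marks about 1 set in 20 in this way, and sets in which the other 3 libraries share a value on a quantile step are marked whatever the distance.

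VBA- vehicle 4 was the library concerned in 6 of the 12. It was high for f10 (10.35, others 9.66 to 9.71), kng1 (9.85, others 8.90 to 8.99), c9 (12.07, others 10.96 to 11.11), apoa1b (16.13, others 15.54) and apoea (13.16, others 12.37 to 12.48), and low for apoa2 (14.84, others 15.21). VBA+ cortisol 4 was low for itih2 (11.30, others 11.72 to 11.80) and c9 (10.65, others 11.13 to 11.15), and high for apoa4b.1 (12.94, others 12.64 to 12.68). The remaining sets were serpina1, high in VBA+ cortisol 3 (12.94, others 12.68), and apoeb, low in VBA- cortisol 4 (13.86, others 13.93) and high in VBA+ vehicle 3 (13.93, others 13.86).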

How the results depend on the processing

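No called member changed sign: over 320 combinations of a called member and an alternative, 172 stayed past the limits and 148 did not. For VBA- against VBA+ in vehicle, with 1 member called, the count was 2 with a pseudocount of 1, and 0 without a filter on low values, with all 16 libraries in the fit, or without a trend in the prior. The replicate block gave 17 members there (0.899% of all genes called), and a term for replicates 1 and 2 against 3 and 4 gave 22 (1.67%). Replicates 1 and 2 alone gave 4 (0.083%) and replicates 3 and 4 alone 0 (0.0138%). For cortisol in VBA+, with 15 called (8.22% of all genes), the count was 7 without the filter, 0 with all 16 libraries and 0 without the trend. It was 0 with the replicate block (0.0277% of all genes called), where same-numbered libraries were not paired, and 23 with the term (8.57%). Replicates 1 and 2 gave 31 (21%) and replicates 3 and 4 gave 0 (0.171%). For VBA- against VBA+ in cortisol, with 0 called, the count was 31 in replicates 1 and 2 (29.7% of all genes called). It was 2 in replicates 3 and 4 (0.291%), and the interaction went to 35 in replicates 1 and 2 (22.9%). No share of all genes is given for the other alternatives or for leaving out a library. Those counts therefore do not show whether members changed more than other genes, and the cause of these differences was not tested. Leaving out 1 library gave 0 to 1 members for the genotypes in vehicle (0 without VBA- vehicle 1, 2 or 3 or any VBA+ vehicle library) and 0 to 25 for cortisol in VBA+ (0 without VBA+ cortisol 1 or 2 or VBA+ vehicle 2, 2 without VBA+ vehicle 1, 5 without VBA+ cortisol 3, 25 without VBA+ vehicle 4), and 0 in the other 3 comparisons. The replicate block changed no count in those 3. Limits are the unknown depth, 1 dish for each condition, pools of 8 larvae sorted by phenotype, whole larvae in place of liver, and 4 libraries a group that fall into pairs by replicate number.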

Other observations

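Levels are log2(normalized count + 0.1) and p-values are those of limma. Genes of the signalling that drives the acute-phase response were also measured in cortisol-treated against vehicle-treated VBA+ larvae. cebpd (ENSDARG00000087303), a transcription factor of the C/EBP family, had 11.16, 11.11, 11.47 and 11.56 in VBA+ cortisol libraries, against 10.82, 11.03, 10.58 and 10.82 in VBA+ vehicle libraries (log2 fold change 0.51 ± 0.12, adjusted p 0.0278). il6st (ENSDARG00000104693), the signal-transducing receptor chain gp130, had 9.94, 9.60, 9.20 and 9.39 in VBA+ cortisol libraries, against 8.87, 8.86, 9.02 and 8.83 in VBA+ vehicle libraries (log2 fold change 0.63 ± 0.14, adjusted p 0.0226). Both were upregulated without overlap, the 2 calls among the 10 genes of that list, where 3.6% of all genes were called higher. In the list 3 genes were apart and higher, where 8.44% of all genes were. The median was 0.30, with 7 genes above 0 and 3 below. The largest change of the list in either direction was the lowest, at -0.86, which was not called. Within replicates 1 and 2, 1 gene of the list was called higher and 1 lower, where 9.91% of all genes were called higher and 11.1% lower. Within replicates 3 and 4 none was called, where 0.171% of all genes were. In the list for intestine and yolk lipid export, 1 of 9 genes was called, cdx1b (0.64), and in the macrophage list 1 of 11, csf1ra (0.69).

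Plasma protein genes outside the members held some genotypes apart. agt (ENSDARG00000016412), angiotensinogen, had 9.56, 9.63, 9.41 and 10.58 in VBA- vehicle libraries, against 8.17, 7.81, 8.97 and 8.77 in VBA+ vehicle libraries (log2 fold change 1.37 ± 0.29, adjusted p 0.107), and 9.04, 9.50, 9.98 and 10.80 in VBA- cortisol libraries, against 8.83, 8.81, 8.84 and 8.90 in VBA+ cortisol libraries (log2 fold change 0.99 ± 0.32, adjusted p 0.588). leap2 (ENSDARG00000104654), an antimicrobial peptide of the liver, had a level of 7.22 ± 0.43 in VBA- cortisol libraries, against 5.83 ± 0.35 in VBA+ cortisol libraries (SD, n = 4 each) (log2 fold change 1.39 ± 0.25, adjusted p 0.421). hamp (ENSDARG00000102175), hepcidin, which lowers iron export, had 6.48 ± 0.39 in VBA- cortisol libraries, against 7.73 ± 0.41 in VBA+ cortisol libraries (log2 fold change -1.25 ± 0.25, adjusted p 0.444). VBA- libraries lay above all VBA+ libraries for agt and leap2 and below them for hamp, and none of these differences passed the limits. These genes were chosen after their values were seen. Of the 2 genes listed as VTN, ENSDARG00000055388 had a genotype difference of 1.19 ± 0.32 in vehicle (adjusted p 0.163 in limma) without overlap, and ENSDARG00000053831 had 0.62 ± 0.24.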
